A study of Mus musculus with 6 samples.

Results

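The arms of one mouse microRNA hairpin, mmu-miR-342-3p and mmu-miR-342-5p, were followed in macrophages that lack the Notch effector RBP-J and in control macrophages. They are 2 of the 611 mouse miRNAs on the array and were taken by the array's own names for them. They were selected on the measured difference between genotypes: earlier results of the same arrays placed miR-342-5p among the miRNAs with the smallest unadjusted p and miR-342-3p among those with higher mean signal in the knockout. Their differences between genotypes are therefore descriptions, given with an error and without a p.

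Bone-marrow-derived macrophages (BMDMs) came from female C57BL/6 mice. The 3 knockout samples came from MxCre-RBP-Jf/f mice, in which both Rbpj alleles are floxed, and the 3 controls from MxCre-RBP-Jf/+ mice, in which 1 allele is floxed. The sample titles call the controls WT, but they carry the Cre and 1 floxed allele. All mice had received poly(I)-poly(C), which drives Cre from the interferon-responsive Mx promoter in many cell types, and all macrophages had been given lipopolysaccharide (LPS) for 24 h. One Agilent 1-colour array was used per sample. The array does not read Rbpj mRNA, so the deletion was not checked. Nothing in the labels says whether replicates were separate animals or cultures, so errors rest on the spread between these samples, which may be technical. Standard errors (SE) are those of limma, which draws the variance of each miRNA towards that of the others in the fit.

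A miRNA hairpin is cut by Drosha and Dicer to a duplex of its 5p and 3p arms, of which one is usually kept more often by Argonaute and reads its targets through a seed at bases 2 to 8. Mir342 lies within the Evl gene, which encodes an actin regulator of the Ena/VASP family, and is transcribed with it. miR-342 rises when retinoic acid drives promyelocytic leukaemia cells to granulocytes and is also abundant in lymphocytes. miR-342-5p has been studied in the macrophages of atherosclerotic lesions and described as a molecule downstream of Notch in neural stem cells and endothelial cells.

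The mature sequences and the hairpin, from RefSeq on GRCm38.p6, are shown because the arms have different seeds and are read by different probes. In the mature arms the capitals mark the seed, and in the hairpin they mark both arms.
miR-342-5p: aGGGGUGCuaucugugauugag
miR-342-3p: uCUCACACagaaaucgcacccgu
Mir342 hairpin: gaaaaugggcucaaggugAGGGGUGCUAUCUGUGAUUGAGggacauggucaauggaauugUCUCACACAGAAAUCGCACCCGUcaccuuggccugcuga

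The hairpin of 99 bases lies on the plus strand at chr12:108658620-108658718, with the 5p arm at chr12:108658638-108658659 and the 3p arm at chr12:108658680-108658702. In the fold predicted by RNAfold, 17 base pairs joined the arms. The 5p arm has 22 bases, 9 of them G, and a GC content of 50%. The 3p arm has 23 bases, 3 of them G, and a GC content of 52.2%. None of the other mature mouse miRNAs in the table, which holds 1679 names in all, shares either seed.

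Before the results, the arrays differed in brightness. Each array was scaled by the 75th percentile over 200 probes that every array detected, which was 288, 243 and 352 intensity units in control replicates 1, 2 and 3. It was 227, 186 and 226 units in the knockout replicates, below every control. In a principal component analysis of the 134 miRNAs tested, component 1 set knockout replicate 2 apart, at 4.71 against -2.04 to 0.37 on the other arrays. Component 2 set control replicate 1 apart, at 4.51 against -1.86 to -0.28. Scaling sets the reference for every difference: the median tested miRNA differed by 0.12 (knockout minus control, log2) as scaled, by -0.31 with no scaling between arrays and by 0.24 with normexp background correction. The arms are for this reason also set against the median miRNA.

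miR-342-3p was the clearly measured arm. Both of its probes were well above background on all 6 arrays, with every one of 118 unflagged spots carrying the scanner's flag for it. The brighter probe, A_54_P2574, had a median spot signal of 581, 644 and 442 intensity units in control replicates 1, 2 and 3. The same probe read 646, 605 and 438 units in knockout replicates 1, 2 and 3. The genotypes overlapped almost completely, and the lowest array of each was replicate 3. On average the probe read 556 ± 103 (SD, n = 3) units in control and 563 ± 111 (SD, n = 3) units in knockout macrophages, a ratio of 1.01. Relative to each array's 75th percentile, the log2 signal was 1.01, 1.41 and 0.33 in the controls and 1.51, 1.70 and 0.96 in the knockouts. On this scale the groups overlapped too, as knockout replicate 3 lay below 2 of the 3 controls.

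The scaled difference of miR-342-3p between genotypes was 0.47 (SE 0.30; 95% interval -0.22 to 1.17), or knockout signal 1.39-fold that of control. The 4 arrays of slide column 1 gave 0.39 and the 2 arrays of column 2 gave 0.63. With no scaling between arrays the difference was 0.02 (SE 0.23), as the unscaled signals did not separate the genotypes. Relative to the median miRNA it was 0.35 as scaled and 0.33 with no scaling. Subtracting the median takes out a shift shared by the miRNAs, as scaling does, so these values are not independent of each other. Relative to the median, the difference was 0.40 with quantile scaling, 0.33 when every mouse probe set the 75th percentile and 0.16 with normexp. The array brightness moved with genotype, and its part in the result was not tested. Control replicate 3 carried much of the gap: without it the difference was 0.18, and without control replicate 2 it was 0.72.

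The probes of the 3p arm gave the same reading. Probe A_54_P2573 read 429, 484 and 336 units in control replicates 1, 2 and 3 and 486, 450 and 321 units in the knockout replicates. Its scaled difference was 0.46 (SE 0.31), against 0.47 (SE 0.31) for A_54_P2574 in the same fit over 250 probes. The gap between the probes was nearly constant from array to array, at 0.42 ± 0.02 on the log2 scale (SD, n = 6), with a range of 0.40 to 0.45. The spots of 1 probe on 1 array had coefficients of variation between 3.34% and 7.87%. Between arrays, the scaled log2 signal of A_54_P2574 had an SD of 0.55 in control and 0.39 in knockout.

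**Figure D1:**
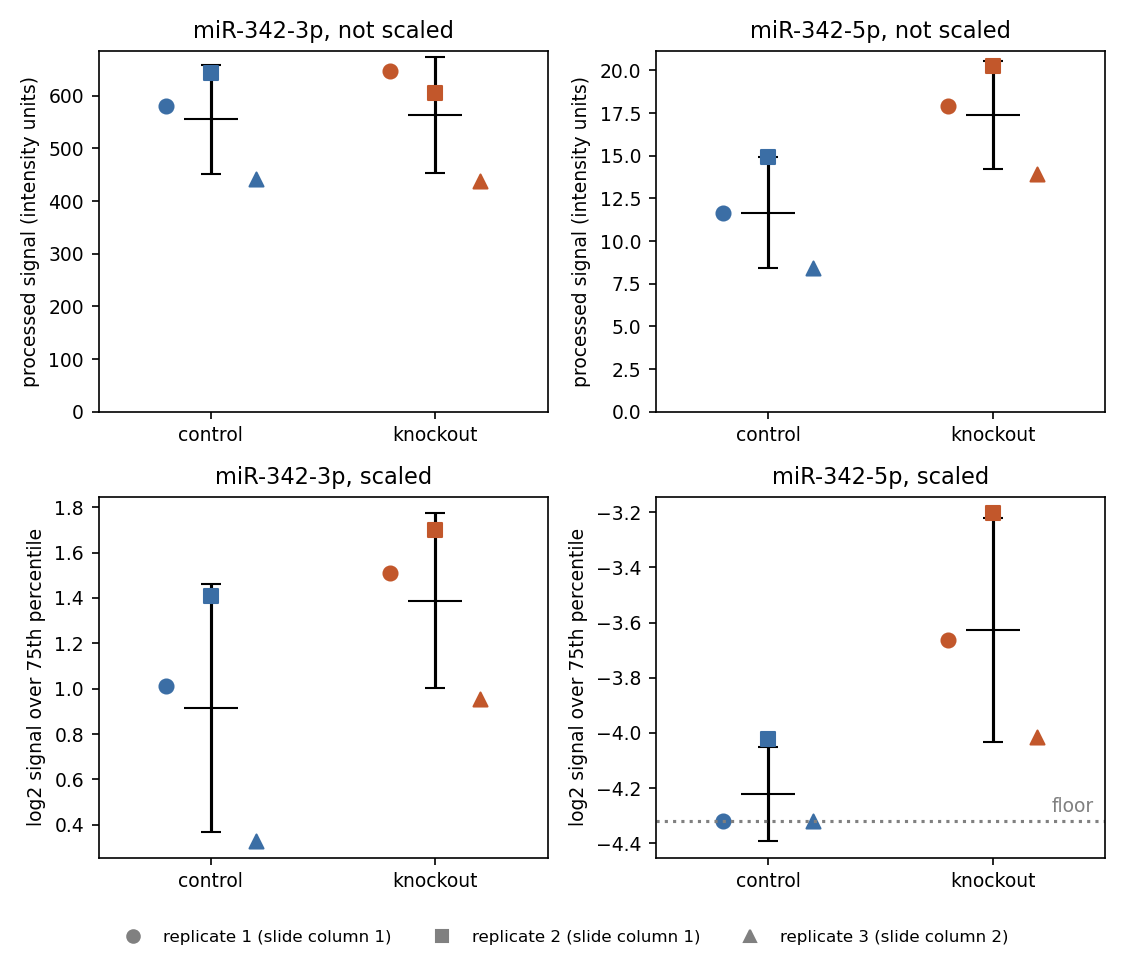
Signal of the brightest probe of each arm on the 6 arrays, before scaling (top, intensity units) and after scaling (bottom, log2 of the signal over the array's 75th percentile). Points are arrays, their shape gives the replicate number and slide column, and bars are the mean ± SD of 3 arrays. Unscaled miR-342-3p overlaps between genotypes (556 and 563 units on average), while miR-342-5p is dim and lies at the floor, the dotted line, on 2 control arrays.

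miR-342-5p was near the limit of detection. Of its 4 probes, 1 gave signal above background, A_54_P2570. That probe read 11.7, 14.9 and 8.44 units in control replicates 1, 2 and 3. It read 17.9, 20.2 and 14.0 units in knockout replicates 1, 2 and 3. This probe was brighter in the knockout on average, but knockout replicate 3 lay below control replicate 2, so the unscaled groups overlapped. Control averaged 11.7 ± 3.24 (SD, n = 3) units and knockout 17.4 ± 3.17 (SD, n = 3) units, a ratio of 1.49.

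Detection of the 5p arm followed the same order. A probe counted as well above background when at least 50% of its spots were flagged so, and by that rule miR-342-5p was detected on 1 of 3 control and 3 of 3 knockout arrays. Of the spots of A_54_P2570, 6 of 15 in control and 13 of 15 in knockout were well above background. By array, with 5 spots each, these were 1, 5 and 0 in control replicates 1, 2 and 3. They were 5, 5 and 3 in the knockout replicates. Spots of one array are not replicates of the genotype. With at least 75% of spots required, the counts were 1 control and 2 knockout arrays. The scanner software's own call per miRNA, which pools the probes, named the arm detected on all 6 arrays. The count of detecting arrays therefore depended on the rule.

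The other 3 probes of miR-342-5p, A_54_P2567, A_54_P2568 and A_54_P2569, stayed at background. None of their 89 unflagged spots was well above it, and their median signals ran from -4.45 to 4.34 units. The first had means of -3.01 ± 1.31 (SD, n = 3) units in control and -3.27 ± 1.13 (SD, n = 3) units in knockout. The last had means of 2.90 ± 1.15 (SD, n = 3) and 2.75 ± 1.78 (SD, n = 3) units. Neither was above background in any sample, so no change could be read from them. The difference in the 5p arm thus rests on 1 probe with 5 spots per array, whose spot SD was between 1.65 and 3.05 units.

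**Figure D2:**
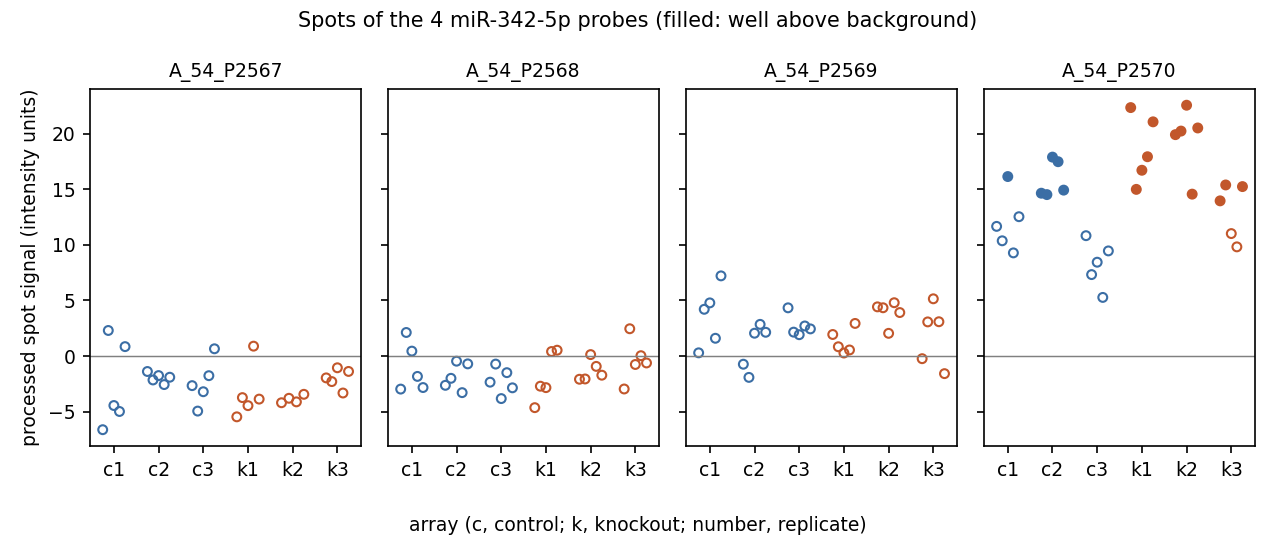
Processed signal in intensity units of every unflagged spot of the 4 miR-342-5p probes, by array (c, control; k, knockout; the number is the replicate). Filled points are well above background. Filled points occur for A_54_P2570 alone, in 1, 5 and 0 spots of control replicates 1, 2 and 3 and in 5, 5 and 3 spots of the knockouts.

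On the scaled log2 axis, signals below -4.32 were raised to that floor, the 5th percentile of detected signals. Control replicates 1 and 3 of miR-342-5p sat at the floor and control replicate 2 at -4.02. The knockouts stood at -3.66, -3.20 and -4.01, so the closest arrays of the groups, control replicate 2 and knockout replicate 3, were almost level. All 3 knockout arrays were above every control by this thin margin. The same separation held for 7.46% of the tested miRNAs, and since this contrast chose the arm, nothing is read from it.

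miR-342-5p was selected on the genotype contrast and sat at the floor in control replicates 1 and 3. Its SE is therefore not read as a test. The scaled difference of miR-342-5p was 0.59 (SE 0.23), a knockout signal 1.51-fold that of control. Relative to the median miRNA it was 0.48 as scaled, 0.68 with no scaling and 0.13 with normexp, and 0.07 with the mean of all probes and 0.09 with gene-level totals. Column 1 of the slide gave 0.74 and column 2 gave 0.31. Both values contain the floor, at which control replicates 1 and 3 sat, so the columns cannot be compared in size. Because 2 of the control arrays were at the floor, the size followed the floor: it was 0.49 with a floor at the 10th percentile, 0.81 at the 1st and 1.05 (SE 0.36) with none. With no scaling between arrays it was 0.37 (SE 0.20). The mean of its 4 probes gave 0.15, as 3 of them sat at the floor on all arrays. The gene-level totals gave 0.10, with 3 control and 2 knockout arrays at the floor of those totals, and 0.93 when no floor was set, which was added once the data had been seen. Without knockout replicate 2, where this arm was brightest, the scaled difference was 0.38.

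The values made by the scanner software and by the authors showed the same order of arrays within each genotype for the 5p arm. The gene-level total of miR-342-5p was 3.99, 4.31 and 2.06 units in the controls and 4.89, 6.05 and 4.26 units in the knockouts, with a software error of 1.49 to 1.77 units on each. In the authors' series matrix the arm stood at 1.70, 2.32 and 0.39 in the controls and 2.44, 2.73 and 2.12 in the knockouts, on a log2 scale. miR-342-3p stood there at 9.28, 9.45 and 8.56 in the controls and 9.64, 9.92 and 8.82 in the knockouts. In both sources the groups overlapped for each arm. In the matrix the differences were 0.36 (SE 0.38) for miR-342-3p and 0.96 (SE 0.52) for miR-342-5p.

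In limma's fit over all 134 tested miRNAs, 0 (0%) passed an adjusted p of 0.05 in either direction, with 6 (4.48%) at an unadjusted p under 0.05. Neither arm passed the adjusted threshold. Among the 6 was miR-342-5p, through the same contrast on which it was selected. In the fit over 250 probes, 0 (0%) passed as well, with 13 (5.2%) at an unadjusted p under 0.05. The count of miRNAs called was 0 under each alternative run.

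The ratio of the arms within an array does not depend on scaling between arrays. It is a ratio of the signals of probes of unlike affinity, so its level does not count molecules. It also contains the 5p difference on which the arm was selected, so it is a description from which nothing is drawn. The signal of A_54_P2574 over that of A_54_P2570, taken without a floor, was 49.8, 43.1 and 52.4 in control replicates 1, 2 and 3. In control replicates 1 and 3 the 5p probe was not well above background, so those ratios rest on a signal at the limit of detection. The ratio was 36.1, 29.9 and 31.3 in knockout replicates 1, 2 and 3. All 3 knockout arrays lay below every control, which without a floor held for 1 (10%) of the 10 hairpins compared below, miR-342 itself. With the floor the groups overlapped. The knockout ratio averaged 32.4 ± 3.22 (SD, n = 3) and the control ratio 48.4 ± 4.76 (SD, n = 3). Before scaling, the 3p probe read alike in the genotypes while the dim 5p probe read higher in the knockout. On the log2 scale the arm difference without a floor changed by -0.58 (SE 0.20) from control to knockout. This setting was added once the data had been seen.

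With the floor, the change in the arm difference was smaller and moved with the setting. The log2 arm difference was then 5.33, 5.43 and 4.65 in the controls and 5.17, 4.90 and 4.97 in the knockouts. The change was -0.12 (SE 0.24; 95% interval -0.64 to 0.40). It was -0.35 among the 4 arrays of slide column 1 and 0.32 between the 2 arrays of column 2. These values contain the floor, at which the 5p arm sat in control replicates 1 and 3. Without the floor, the arm difference in column 1 was 5.64 and 5.43 in control and 5.17 and 4.90 in knockout. In column 2 it was then 5.71 in control and 4.97 in knockout, so the knockouts were lower in both columns. For the change with all arrays, a floor at the 1st percentile gave -0.34, one at the 10th percentile -0.018, and no scaling between arrays -0.35. The unfloored ratio takes the 2 control readings of the 5p probe that were not well above background at face value. The floored one replaces them by a common value.

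For comparison, 10 hairpins had both arms among the tested miRNAs, of 168 with both arms on the array, as paired by name. A 3p arm was paired with the 5p arm of its name, and a main strand with the star strand of its name. miR-24, miR-24-1* and miR-24-2* were tested as well, but their names did not match and they were left out. limma called 0 (0%) of the 10 arm differences with the floor and 0 (0%) without it. With the floor the lowest changes were those of let-7b at -0.35 (SE 0.21) and let-7f at -0.23 (SE 0.22), both of the let-7 family, whose members rise as cells differentiate. The highest were those of miR-22, a myeloid-expressed miRNA, at 0.17 (SE 0.22) and miR-483, which lies in the Igf2 gene, at 0.16 (SE 0.42). Counted from the lowest, miR-342 had rank 4 of 10 with the floor and rank 1 without it, where it was the 1 hairpin of 10 (10%) whose groups separated downwards. Nothing is read from this place, since miR-342-5p was selected on the same difference and passed the detection filter through 1 control and 3 knockout arrays.

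**Figure D3:**
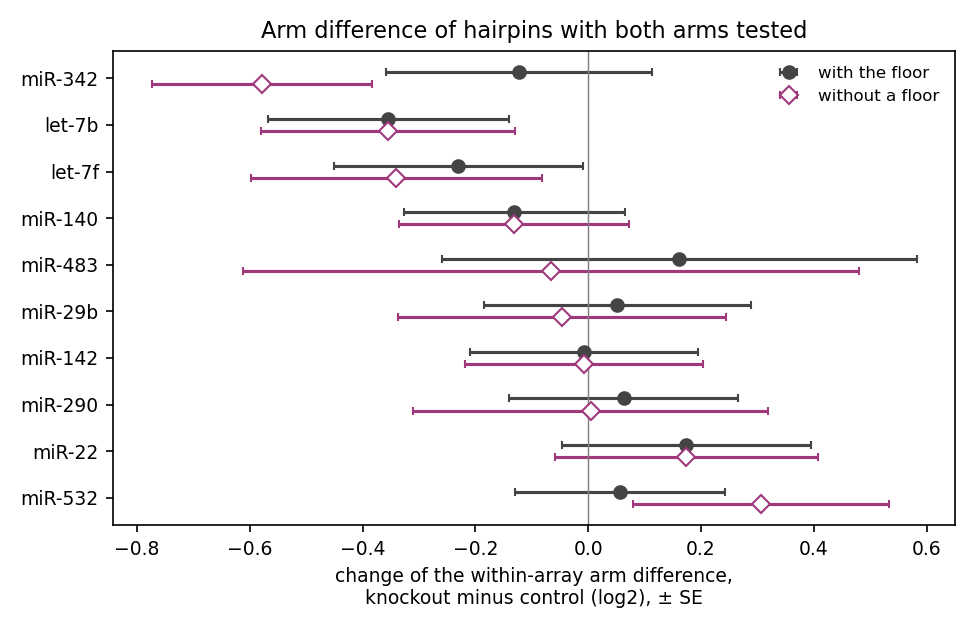
Change of the within-array arm difference, knockout minus control on the log2 scale, for the 10 hairpins whose tested arms were paired by name. The difference is 3p minus 5p, or main minus star strand. Points are limma estimates from 3 arrays per group with their standard error, filled with the floor and open without it. The miR-342 value moves from -0.12 with the floor to -0.58 without it.

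The arms were also compared with the other tested miRNAs in how they varied over the 6 arrays. Their SDs over all arrays, 0.50 for miR-342-3p and 0.43 for miR-342-5p on the log2 scale, were above the median SD of 0.24. These SDs contain the genotype difference on which the arms were selected, so nothing is read from their place above the median. Likeness was measured as the root mean square (RMS) difference of log2 values, each centred on its own mean over the 6 arrays. Nearest to miR-342-3p were miR-30a (0.22), miR-149 (0.25) and miR-1892 (0.25), against a median of 0.45 over the tested miRNAs. Nearest to miR-342-5p were miR-1896 (0.11), miR-1895 (0.19) and miR-378 (0.19), against a median of 0.40. The arms themselves were 0.27 apart. This gave miR-342-5p rank 5 of 133 in nearness to miR-342-3p, and miR-342-3p rank 15 of 133 in nearness to miR-342-5p. In every comparison with miR-342-5p, its values in control replicates 1 and 3 were the floor itself. miR-1896 was also near the floor in the controls, with a mean of -4.24. The part of the floor in these RMS values was not tested. They also contain the genotype difference on which the arms were selected, so nothing is read from the ranks.

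miRNAs tied to granulocytic differentiation, a list of 10 that holds both arms of miR-342, gave 0 calls. In the fit 8 had a higher and 2 a lower value in the knockout, with a median difference of 0.07, against 97 higher, 37 lower and a median of 0.12 over all 134. The members of that list with the largest differences were the miR-342 arms, which count among the 8. They were selected on this same contrast, so nothing is read from their place or from the list's counts. Of 10 miRNAs linked to PU.1 or to myeloid cells, 9 were tested and 0 called, 5 with higher and 4 with lower values and a median of 0.13. The largest in size were miR-322, of the miR-15/16 seed family, at -0.42 (SE 0.26) and miR-29b, which targets collagens and DNA methyltransferases, at 0.27 (SE 0.19). Of 16 Notch-linked miRNAs, 15 were on the array by name, 10 were tested and 0 called, 5 with higher and 5 with lower values and a median of 0.05. There the largest were miR-125a-5p at -0.53 (SE 0.30) and let-7e at -0.47 (SE 0.24), neighbours in one cluster.

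Because miR-342-3p is also abundant in lymphocytes, markers of other cells were read on the same arrays. miR-150, the defining miRNA of mature lymphocytes, was not detected on any array, with median signals of -1.93 to 1.29 units and 1 of its spots well above background over the 6 arrays. Of the 4 lymphoid markers 2 were detected, miR-181a and miR-181b, which other blood cells also express. Their list's summed scaled signal was 0.47 to 0.51 in control and 0.48 to 0.70 in knockout arrays. None of 19 markers of erythroid or platelet, endothelial, stromal and epithelial cells was detected on any array. All 6 macrophage or granulocyte markers (miR-223, miR-142-3p, miR-142-5p, miR-155, miR-146a and miR-21) were detected on all 6 arrays, with a summed scaled signal of 125 to 150.2 in control and 127 to 152 in knockout arrays. In bulk RNA, fewer cells with an miRNA and less of it per cell cannot be told apart.

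**Figure D4:**
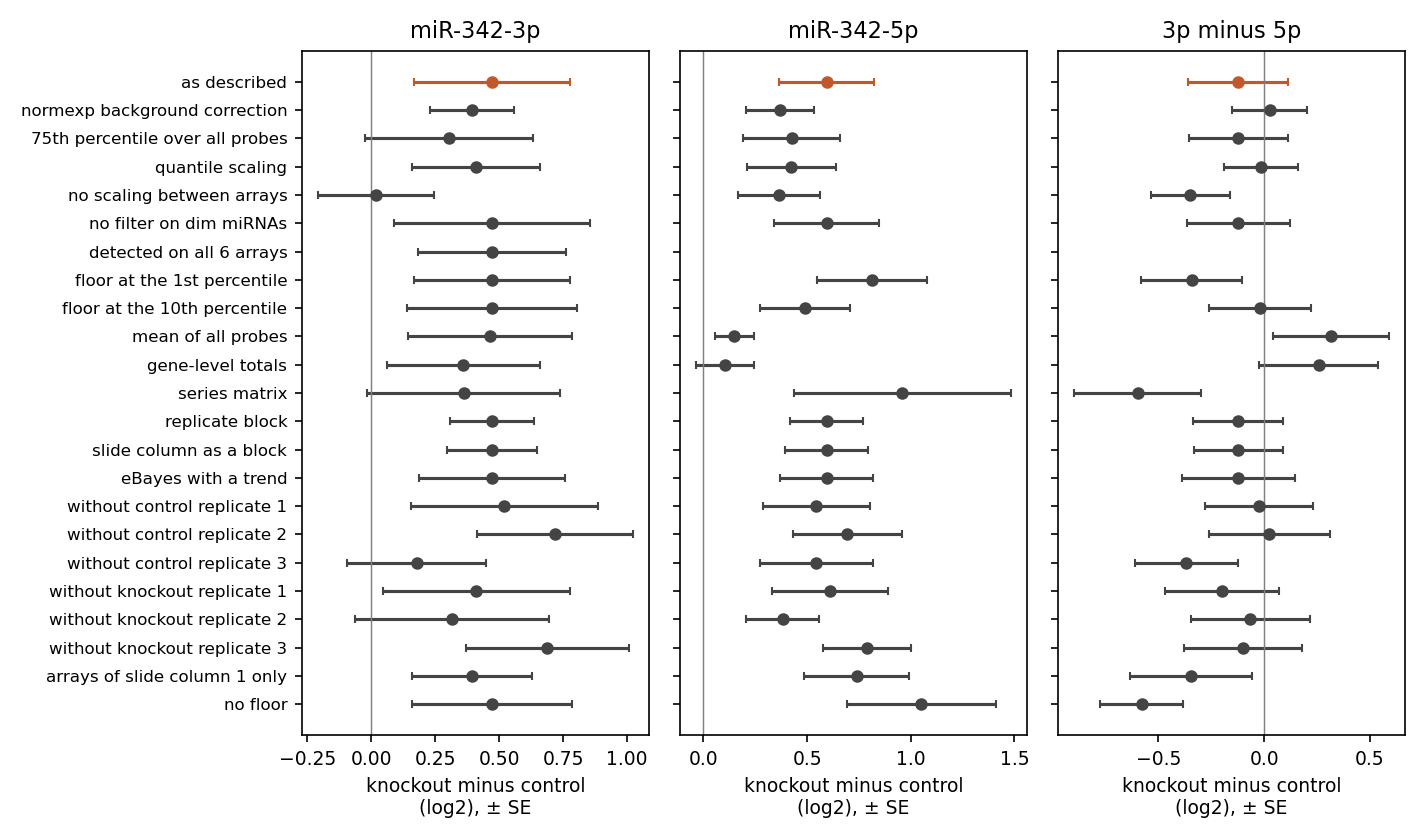
Knockout minus control difference (log2) of miR-342-3p, of miR-342-5p and of the arm difference under every setting run, with the limma standard error. Both arms stay above 0 in all settings shown, miR-342-3p down to 0.02 with no scaling, while the arm difference runs from -0.60 in the series matrix to 0.32 with the mean of all probes.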

How the data were processed

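Total RNA, 0.5 ug per sample, was labelled with Cy3 and hybridised to mouse miRNA arrays of design 021828, 6 arrays on 1 slide. Per the file headers, Feature Extraction 10.5.1.1 subtracted the background from the spot intensity values and detrended them; the submitters' processing notes name version 9.1. The deposited gene-level tables hold total intensity per miRNA and a detection call. The deposited series matrix holds log2 values that correlated at 0.999 or more with log2 totals above 5 units and shared a maximum of 14.74, with column medians of 0 to 0.029. Its scale is thus log2, with no centring per miRNA, but its values are not the log2 totals themselves. In replicate 3, the totals of miR-342-3p were 502 units in control and 505 units in knockout, against 8.56 and 8.82 in the matrix. The normalization was not given in the sources used here. All of its columns belonged to the 6 samples.

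For 1759 mouse probes the median intensity of unflagged spots was scaled to the array's 75th percentile (200 probes detected on all arrays), floored and log2 transformed. A miRNA took its probe with the highest mean, and those detected on 3 or more arrays were tested. Genotypes (3 against 3, from the titles) were compared with limma 3.58.1 in R 4.3.3 with Benjamini-Hochberg adjustment over the whole table, in a procedure tested on simulated data. Hairpin folding used RNAfold 2.7.2. Precision is limited by the number of arrays.

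The members and lists were chosen with earlier results of these data known. Named were both arms and their probes, the 3 miRNAs nearest to each arm, the 2 list members largest in size and the 2 hairpins at each end of the arm differences. Alternatives covered background correction, scaling, filter, floor, probe rule, gene-level totals, series matrix, blocks, variance trend, detection rule and leaving out each array. All arrays of replicates 1 and 2 lay in slide column 1 and those of replicate 3 in column 2, and each slide row held 1 genotype, so row and genotype cannot be told apart. Probe sequences were not used here.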

Additional observations from a re-analysis of the deposited data

How the results depend on the processing

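miR-342-3p and miR-342-5p kept a higher mean in the knockout under each of the alternatives run, and neither was called in any fit run. Apart from leaving out arrays, miR-342-3p ran from 0.02 (no scaling) to 0.47 and miR-342-5p from 0.10 (gene-level totals) to 1.05 (no floor). Leaving out each array gave 0.18 to 0.72 for miR-342-3p, 0.38 to 0.79 for miR-342-5p and -0.37 to 0.024 for the arm difference, which turned above 0 without control replicate 2. The arm difference also turned to 0.026 with normexp, 0.32 with the mean of all probes and 0.26 with gene-level totals. In the mean, 3 of the 4 probes of the 5p arm sat at the floor. In the totals, 5p lay at the floor on 3 control and 2 knockout arrays. normexp was run with an offset of 50 units, against 5p signals of 8.44 to 20.2 units, and the part of this offset was not tested. It was -0.34 with a floor at the 1st percentile, -0.35 with no scaling, -0.58 with no floor and -0.60 in the series matrix. The filter on detection on all 6 arrays drops miR-342-5p and gave no value for it. Without a filter most arm differences have no variance, and their errors there are unreliable. With the replicate number as a block the differences were the same, 0.47 (SE 0.16), 0.59 (SE 0.17) and -0.12 (SE 0.21), and 0 miRNAs were called. The deviations of same-numbered samples correlated at 0.17, -0.07 and 0.37, and replicate 2 samples did not correlate best with each other, so the numbers were not taken as pairs. The settings with no floor and with slide column 1 alone were chosen after seeing the data. Signal over background limits the 5p arm, at 8.44 to 20.2 units.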

Other observations

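miR-342-3p was lower on the arrays of slide column 2, those of replicate 3, than on the arrays of column 1. In a limma fit with genotype and slide column, a comparison chosen after seeing the data, the arrays of column 2 stood below those of column 1 by -0.77 (SE 0.19) on the log2 scale, the third lowest value of 134 miRNAs, whose median was -0.09. miR-342-5p stood at -0.37 (SE 0.21). limma called 0 (0%) of 134 miRNAs for the column at an adjusted p of 0.05 (miR-342-3p adjusted p = 0.278), with 11 at an unadjusted p under 0.05. Column 2 held replicate 3 of each genotype and no other array, so slide column and replicate 3 cannot be told apart.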
